A study of Mus musculus with 2 samples.

Results

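The genes described here encode high mobility group (HMG) proteins, which bend and pack DNA, and proteins of the nuclear lamina, the protein mesh under the inner nuclear membrane. They are 10 genes: Hmga1, Hmga2, Hmgb1, Hmgb2, Hmgb3, Lmna, Lmnb1, Lmnb2, Lbr and Tmpo. All 10 were found by their Ensembl identifiers among the 35275 genes of a table of read counts. They were grouped by what their products do, and the group was chosen with the senescent to control ratios of these same libraries in view. The ratios below therefore describe the genes, and none of them was tested. RNAseq was done on AML12 cells, which are mouse hepatocytes grown as a non-transformed line from a mouse that carried a transgene for human transforming growth factor alpha. Control AML12 cells were left untreated. Senescent AML12 cells were exposed to H2O2 for 1 h per day over 6 days (1 mM at first, 750 µM on each later day), with 23 h of recovery in complete medium after each exposure. Both groups carry the labels CD-1, male and 3 months, and the labels name the treated cells old and the control cells young. Each condition was 1 library made from RNA of 3 pooled samples, so the difference between conditions has no replicate check and no p-value is given.

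HMGA proteins hold the minor groove of AT-rich DNA with short AT-hook motifs, are abundant in embryonic and many tumour cells, and gather in the condensed chromatin foci of senescent fibroblasts. HMGB proteins bend DNA with paired HMG boxes, and HMGB1 can also leave the cell and act as an alarm signal. Lamin A and lamin C are spliced from Lmna, whereas the B-type lamins come from Lmnb1 and Lmnb2 and stay attached to the membrane by a farnesyl group. Lbr encodes the lamin B receptor, which tethers heterochromatin to the nuclear membrane and has sterol reductase activity. Tmpo encodes the LAP2 proteins, which bind lamins and chromatin, and loss of lamin B1 is widely used as a mark of senescence in cultured cells.

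The control library held 28021941 reads and the senescent library 25738075. Reads on the 10 genes summed to 52451 in control cells (0.187% of the library) and 74724 in senescent cells (0.290%), and each gene had between 2934 and 41330 reads over both libraries. The ratio used here is log2 of senescent over control reads after scaling by the trimmed mean of M-values (TMM), with a prior count of 1. Its 95% interval is an exact Clopper-Pearson interval that covers counting error only, and the spread between cultures is unknown. A gene was counted higher or lower where the log2 ratio passed 1.5 with an interval clear of 0 and at least 10 reads in all. Levels are read counts in per-million units of the scaled library and per kb of exon, with exact Poisson intervals, and only they are compared between genes. In bulk RNA, fewer cells that express a gene and less of its RNA per cell cannot be told apart.

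Of the markers of other cell types, the endothelial list reached 6 control and 13 senescent reads over 5 genes, and the fibroblast and stellate cell list 27 and 8 reads over 7 genes, with Col1a2, Col3a1 and Lum at 0. Hepatocyte markers were present, with 226416 and 227947 reads over 10 genes, 4 with intervals above 0 and 4 below (2 above and 4 below with scaling by total counts). Most of these reads came from the keratins Krt8 (119403 control and 144783 senescent reads, log2 ratio 0.51) and Krt18 (40512 and 60941 reads, 0.82). Alb, which encodes albumin, was lower (32076 control and 2917 senescent reads, log2 ratio -3.23), and so was Apoa1 (2026 and 197 reads, -3.13), while Ttr had 23146 and 10486 reads (-0.91). Hnf4a, a transcription factor of hepatocytes, had 8187 and 7705 reads (0.14). In the macrophage list Adgre1 was at 0 in both libraries and Lyz2 had 1 and 0 reads, while Ptprc (27 and 76 reads) and Csf1r (15 and 40 reads) were counted higher. The summed level of that list was 111 in control and 45.5 in senescent cells, nearly all of it from Cd14 (5551 and 1879 reads). The cholangiocyte list held 55165 and 35238 reads over 5 genes, led by Spp1 and Krt19. Spp1 (-1.04) and Krt7 (-1.43) had intervals below 0 and Sox9 (0.54) above, while that of Krt19 (-0.03) held 0. With scaling by total counts 1 lay above 0 and 3 below. Epcam had 0 and 1 reads. The part of these cell type markers in the values below was not tested.

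The HMGA genes were both higher in senescent cells. Hmga2 (ENSMUSG00000056758, GRCm38 chromosome 10, 120361275 to 120476469, minus strand) had 10796 reads in control and 30534 in senescent cells. Its level was 54.8 in control and 182 in senescent cells, a log2 ratio of 1.73 (interval 1.70 to 1.76), or 3.32-fold. Hmga1 (ENSMUSG00000046711, chromosome 17, 27556497 to 27563674, plus strand) had 4994 and 13019 reads. Its level of 80.8 (78.6 to 83.1) in control cells became 247 (243 to 251), a log2 ratio of 1.61 (1.56 to 1.66), or 3.06-fold. By level, Hmga1 moved from place 578 to place 166 among the 14383 genes with at least 10 reads, and Hmga2 from 923 to 245. Only these 2 of the 10 genes were counted higher, where 2.71% of all genes with at least 10 reads were. Among the 7804 genes with at least 1000 reads, where counting error is small, 0.871% were counted higher. In that abundant set 48 genes had a ratio above that of Hmga2 and 56 above that of Hmga1.

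**Figure D1:**
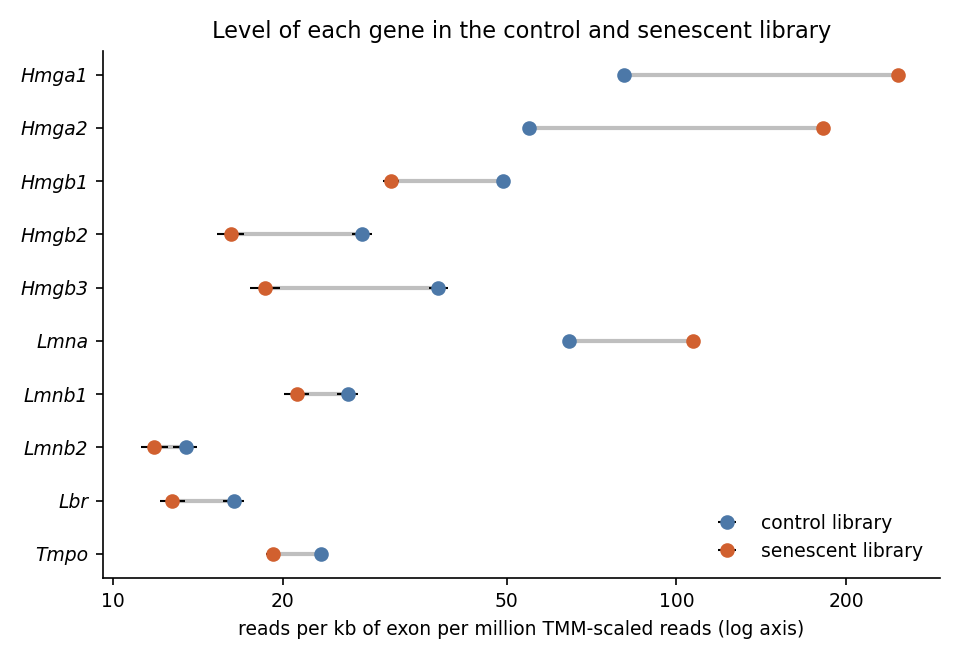
Level of each gene in the control and the senescent library, in per-million scaled reads and per kb of exon on a log axis. Error bars are exact Poisson intervals of 1 library each. Hmga1 and Hmga2 stand highest in the senescent library, at 247 and 182, and Lmnb2 lowest in both, at 13.5 and 11.8.

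The 3′ UTR of Hmga2 is known as a target of let-7 microRNAs, whose seed is complementary to CTACCTC. The microRNAs themselves were not measured in this poly(A) selected library. Of 11 let-7 family microRNAs in the RefSeq table, 10 share the seed GAGGUAG, shown in capitals in let-7a-5p. The sites below carry CTACCTC in capitals, and each lies in the GENCODE M21 3′ UTR of its gene.
let-7a-5p: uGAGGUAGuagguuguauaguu
Hmga2 base 58: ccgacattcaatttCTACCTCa
Hmga2 base 1295: cccactcctcaataCTACCTCt
Hmga2 base 1733: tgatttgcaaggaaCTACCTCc
Hmga2 base 2591: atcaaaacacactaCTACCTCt
Hmga1 base 801: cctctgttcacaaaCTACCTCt

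Hmga2 carries 4 sites in a 3′ UTR of 3014 bases, where the median over genes is 1085 bases. Of 21130 genes with a 3′ UTR, 10.1% hold the site at least once, 12 at least 4 times and 4 more often than Hmga2. Hmga1, Lbr and Tmpo hold 1 each and the other 6 members 0. The part of these sites in the ratios was not tested. In a list of 13 genes of the let-7 axis, 12 could be read, with 1 counted higher and 0 lower. Over all genes with at least 10 reads, 2.71% were counted higher and 5.60% lower. In this list 9 intervals lay above 0 and 1 below, and the median ratio was 0.34. With scaling by total counts 7 lay above 0 and 2 below. With TMM scaling, 34.0% of all genes with at least 10 reads had an interval above 0 and 34.6% below. With at least 1000 reads these shares were 48.5% and 34.2%. Arid3b, which encodes an AT-rich DNA binding factor, was the higher one, with 38 and 132 reads (2.0, interval 1.5 to 2.59). The insulin-like growth factor 2 mRNA binding proteins gave 1632 and 1506 reads for Igf2bp1 (0.11), 2306 and 2472 for Igf2bp2 (0.33, 0.25 to 0.41) and 832 and 1154 for Igf2bp3 (0.70, 0.57 to 0.83). Lin28b, which blocks let-7 maturation, had 37 and 58 reads (0.86, 0.26 to 1.51), and Lin28a was at 0 in both.

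The HMGB genes were lower by less than the threshold. Hmgb1 (ENSMUSG00000066551, chromosome 5, 149046702 to 149184489, minus strand) had 7184 control and 3886 senescent reads, a level of 49.2 and 31.2 and a log2 ratio of -0.66 (interval -0.71 to -0.60). Hmgb2 (ENSMUSG00000054717, chromosome 8, 57511907 to 57515999, plus strand), whose product is abundant in dividing cells, had 2415 and 1204 reads, a level of 27.7 and 16.2 and a ratio of -0.77 (-0.88 to -0.67). Hmgb3 (ENSMUSG00000015217, chromosome X, 71555918 to 71560676, plus strand) had 2452 and 1032 reads, a level of 37.7 and 18.6 and a ratio of -1.02 (-1.13 to -0.91). Senescent levels were thus 63.4%, 58.5% and 49.4% of control. None of the 10 genes was counted lower, where 5.60% of all genes with at least 10 reads and 1.70% of those with at least 1000 were. Among the abundant genes Hmgb3 lay at percentile 4.01 of the ratios, Hmgb2 at 6.80 and Hmgb1 at 8.83, against 99.4 for Hmga2 and 99.3 for Hmga1.

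Promoters are shown for the HMG genes because the HMGA and the HMGB families had ratios of opposite sign. They come from RefSeq on GRCm38.p6 and run from 250 bases before to 50 after a transcript's start, 5′ to 3′ in the sense of the gene. The RefSeq table held 14 promoters for 9 of the 10 genes and none for Lmnb1. Capitals mark CCAAT, the letters bound by NF-Y, and TTTGAA or TTTAAA, the cell cycle homology region bound by complexes that repress cell cycle genes in resting cells. Both strands were searched, so TTCAAA is TTTGAA read on the other strand. Hmga1 is chr17:27556324-27556623 (plus), Hmga2 chr10:120476420-120476719 (minus), Hmgb1 chr5:149053008-149053307 (minus), Hmgb2 chr8:57511593-57511892 (plus) and Hmgb3 chrX:71555667-71555966 (plus).
Hmga1: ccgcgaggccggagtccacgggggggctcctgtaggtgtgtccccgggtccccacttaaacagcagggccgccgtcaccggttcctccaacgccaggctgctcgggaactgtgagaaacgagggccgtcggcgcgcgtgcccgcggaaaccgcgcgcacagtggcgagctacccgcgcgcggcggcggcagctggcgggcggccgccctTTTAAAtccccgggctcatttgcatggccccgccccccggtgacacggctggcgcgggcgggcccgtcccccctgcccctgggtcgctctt
Hmga2: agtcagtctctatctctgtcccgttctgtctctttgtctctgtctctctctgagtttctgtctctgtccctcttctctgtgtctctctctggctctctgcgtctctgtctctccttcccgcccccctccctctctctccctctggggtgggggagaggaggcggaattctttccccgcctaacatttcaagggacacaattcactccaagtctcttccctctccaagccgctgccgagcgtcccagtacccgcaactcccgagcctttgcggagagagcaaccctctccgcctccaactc
Hmgb1: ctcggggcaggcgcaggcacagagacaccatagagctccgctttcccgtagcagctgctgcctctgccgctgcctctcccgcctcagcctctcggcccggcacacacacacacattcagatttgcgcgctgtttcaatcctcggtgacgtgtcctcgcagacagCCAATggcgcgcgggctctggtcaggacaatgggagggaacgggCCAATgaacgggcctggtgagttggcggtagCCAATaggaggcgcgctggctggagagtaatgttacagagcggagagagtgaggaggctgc
Hmgb2: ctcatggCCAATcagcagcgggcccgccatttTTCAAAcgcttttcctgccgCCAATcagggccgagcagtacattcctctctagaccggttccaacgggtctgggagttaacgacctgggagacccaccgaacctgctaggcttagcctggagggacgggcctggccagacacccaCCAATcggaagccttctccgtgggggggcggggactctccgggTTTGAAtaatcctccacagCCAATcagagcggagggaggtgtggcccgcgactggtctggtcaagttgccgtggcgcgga
Hmgb3: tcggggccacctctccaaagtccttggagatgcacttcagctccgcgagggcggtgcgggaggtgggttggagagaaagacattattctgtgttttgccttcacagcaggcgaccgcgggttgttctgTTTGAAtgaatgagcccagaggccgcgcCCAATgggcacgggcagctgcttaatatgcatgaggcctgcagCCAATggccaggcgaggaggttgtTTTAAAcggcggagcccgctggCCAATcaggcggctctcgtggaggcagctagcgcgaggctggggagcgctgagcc

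The 3 HMGB promoters hold several CCAAT letters each and the HMGA promoters hold none. Counted from the start, CCAAT lies at -86, -42 and -11 in Hmgb1, at -243, -198, -73 and -11 in Hmgb2, and at -94, -51 and -5 in Hmgb3. A second Hmgb1 promoter, chr5:149051567-149051866, holds none. Of 32851 mouse promoters of the same length, 37.4% hold CCAAT at least once, 11.7% at least 2 times and 3.37% at least 3 times. Among the 9690 promoters with at least 60% GC the last share is 3.41%. Lbr (-68 and -28) and Tmpo (-53 and -21) hold 2 each, and Lmna holds 1, so 5 of the 9 genes have a promoter with at least 2. TTTGAA or TTTAAA is in 27.6% of all promoters and in a promoter of 5 of the 9 genes. The AP-1 letters TGANTCA are in 7.81% of promoters and in those of Lbr (at -48, overlapping its TTTGAA at -45) and Lmna (at +40). The E2F letters, in 2.26% of promoters, were found in 1 promoter of Tmpo, at -195. These are matches of letters in a fixed window, with no measure of binding.

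Of the lamina genes, Lmna had more reads per scaled library in senescent cells and the other genes had fewer. Lmna (ENSMUSG00000028063, chromosome 3, 88480147 to 88509956, minus strand) had 10942 control and 15505 senescent reads, a level of 64.5 and 107 and a log2 ratio of 0.73 (0.70 to 0.77), or 1.66-fold. Counts per gene do not separate lamin A from lamin C. Lmnb1 (ENSMUSG00000024590, chromosome 18, 56707813 to 56753424, plus strand) had 2249 and 1556 reads, a level of 26.1 and 21.2 and a ratio of -0.30 (-0.40 to -0.21). Lmnb2 (ENSMUSG00000062075, chromosome 10, 80901203 to 80918245, minus strand) had 1678 and 1256 reads, a level of 13.5 and 11.8 and a ratio of -0.19 (-0.29 to -0.08). These are 81.1% and 87.8% of the control level for the B-type lamins. Their ratios lay at percentiles 21.6 and 27.8 of the abundant set, whose middle 90% ran from -0.91 to 0.84.

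The lamin partners had ratios like those of the B-type lamins. Lbr (ENSMUSG00000004880, chromosome 1, 181815335 to 181843046, minus strand) had 2272 control and 1504 senescent reads, a level of 16.4 and 12.7 and a log2 ratio of -0.37 (-0.46 to -0.27). Tmpo (ENSMUSG00000019961, chromosome 10, 91147571 to 91181315, minus strand) had 7469 and 5228 reads, a level of 23.4 and 19.2 and a ratio of -0.28 (-0.34 to -0.23). Its LAP2 isoforms are not separated in these counts.

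Over the 10 genes, 3 intervals lay above 0 and 7 below 0, with a median ratio of -0.29. The median was -0.02 for all genes with at least 10 reads and 0.08 for those with at least 1000. At this depth intervals clear of 0 are common. The interval lay above 0 in 34.0% and below 0 in 34.6% of genes with at least 10 reads. With at least 1000 reads these shares were 48.5% and 34.2%. A small assumed spread between cultures changes these counts. With an assumed coefficient of variation of 0.1, the intervals of Hmga1, Hmga2 and Lmna stayed above 0 and those of the 3 HMGB genes below 0, while those of Lmnb1 (-0.71 to 0.11), Lmnb2 (-0.60 to 0.23), Lbr (-0.78 to 0.05) and Tmpo (-0.69 to 0.12) held 0. At 0.4 only Hmga1 (0.01 to 3.21) and Hmga2 (0.13 to 3.33) stayed above 0 and none was below.

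**Figure D2:**
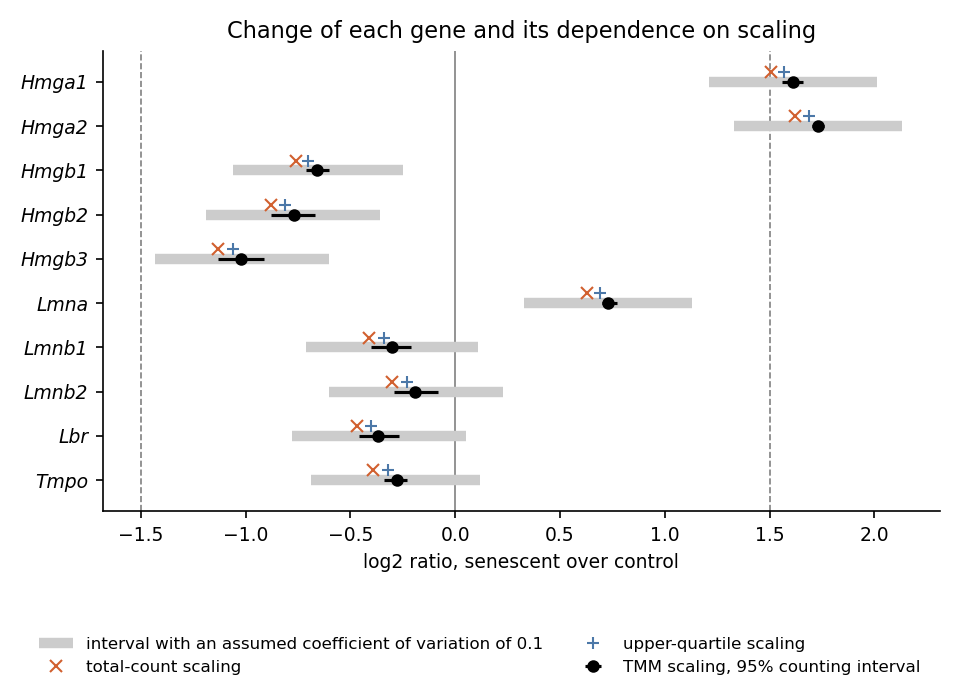
Log2 ratio of senescent over control for each of the 10 genes, 1 library per condition, with bars for the 95% interval from counting error. Hmga1 and Hmga2 lie past the threshold of 1.5 that the plot marks, Lmna lies at 0.73, and the other 7 genes lie between -1.02 and -0.19.

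**Figure D3:**
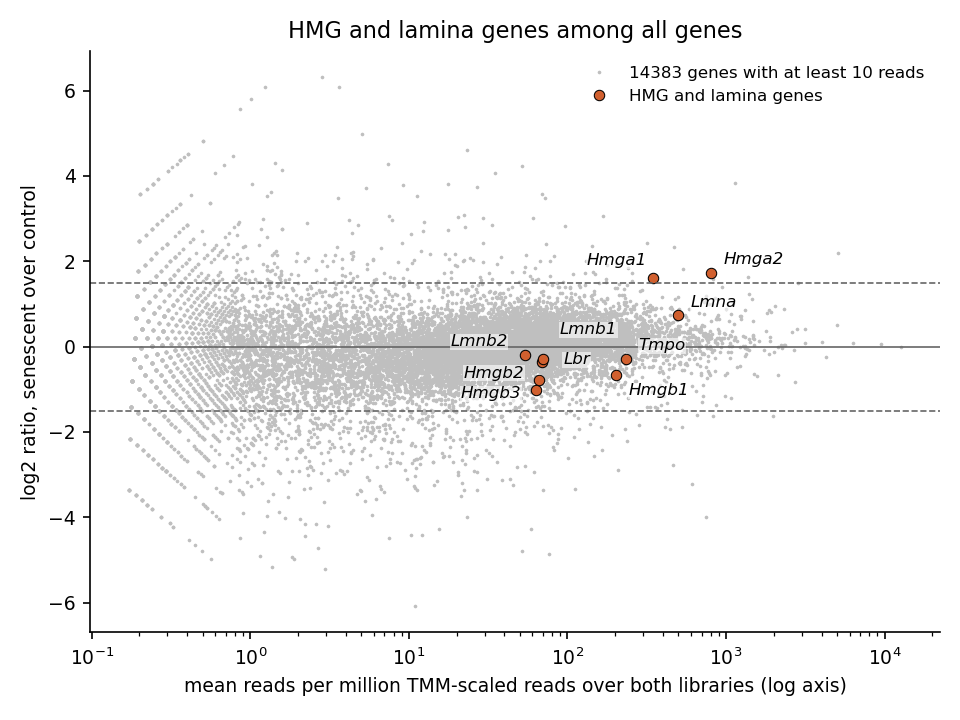
Log2 ratio against mean abundance (per-million scaled reads, log axis) for 14383 genes in grey, with the 10 HMG and lamina genes in colour and the thresholds of 1.5 and -1.5 dashed. Hmga1 and Hmga2 are the members above the upper dashed line, and Hmgb3, at -1.02, comes closest to the lower one.

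The order of levels changed with senescence for some members and not for others. In control cells it ran Hmga1, Lmna, Hmga2, Hmgb1, Hmgb3, Hmgb2, Lmnb1, Tmpo, Lbr and Lmnb2, and the intervals of Hmgb2 and Lmnb1 overlapped. In senescent cells it ran Hmga1, Hmga2, Lmna, Hmgb1, Lmnb1, Tmpo, Hmgb3, Hmgb2, Lbr and Lmnb2, with overlapping intervals for Tmpo and Hmgb3 and for Lbr and Lmnb2. Hmgb3 and Hmgb2 stood above Lmnb1 and Tmpo in control cells and below them in senescent cells.

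Ratios of one member to another within a library do not depend on how the libraries are scaled. The log2 difference of a pair follows from the ratios of its members given above. Those ratios were in view when the pairs were set. There was 1.11 times as much Hmga2 as Hmgb1 transcript per length in control cells and 5.83 times as much in senescent cells, a log2 difference of 2.39 (2.32 to 2.45). Hmga2 over Hmgb2 went from 1.98 to 11.2, a 5.67-fold difference, and Hmga1 over Hmgb1 from 1.64 to 7.92. Lmna over Lmnb1, the A-type to B1-type lamin ratio, went from 2.47 to 5.06, a log2 difference of 1.03 (0.93 to 1.13). Lmna over Lmnb2 went from 4.79 to 9.06 (0.92, 0.81 to 1.03).

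Differences within a family were smaller. Hmga2 over Hmga1 was 0.678 in control and 0.736 in senescent cells (0.12, 0.06 to 0.17). Hmgb1 over Hmgb3 went from 1.30 to 1.67 (0.36, 0.24 to 0.48). For Lmnb1 over Lmnb2 the difference was -0.11 (-0.25 to 0.03), for Tmpo over Lmnb1 0.02 (-0.09 to 0.12) and for Lbr over Lmnb1 -0.06 (-0.20 to 0.07), and all 3 intervals hold 0. Summed by family, the level was 136 in control and 429 in senescent cells for HMGA, 115 and 66.0 for HMGB, 39.6 and 33.0 for the B-type lamins, and 39.8 and 31.9 for Lbr with Tmpo.

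**Figure D4:**
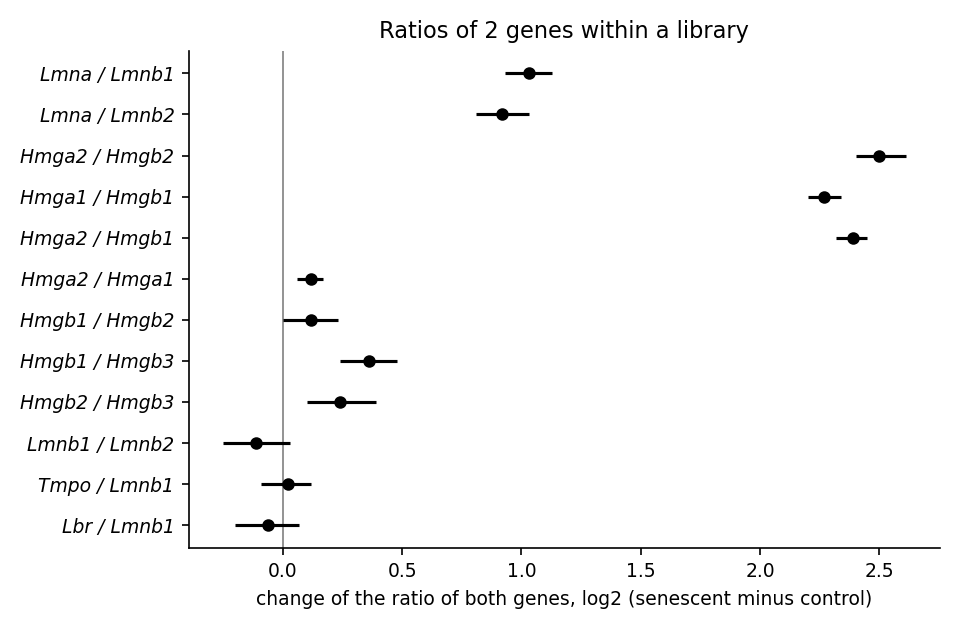
Log2 difference, senescent minus control, in the ratio of transcript per length between pairs of members. Bars are intervals from counting error. Lmna over Lmnb1 lies at 1.03 (a ratio of 2.47 in control and 5.06 in senescent cells). Hmga2 over Hmgb2 lies at 2.50 (1.98 and 11.2), and Lmnb1 over Lmnb2 at -0.11 (1.94 and 1.79).

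Reads shared with other loci limit some members. Hmgb1 has 33 near-identical copies among the listed genes, 14 of them with reads, which held 503 control and 251 senescent reads, or 7.0% and 6.46% of the Hmgb1 count. The largest, Gm13577, chosen after its values were seen, had 317 and 155 reads (-0.80, -1.09 to -0.52). Hmga1b, a copy of Hmga1 also chosen after its values were seen, had 48 and 100 reads. Hmga2 shares 140 exon bases with the antisense gene 1700006J14Rik, also chosen afterwards, which had 291 and 1012 reads (2.02, 1.84 to 2.22). Since the use of strand in counting is not given in the sources used here, reads on these shared bases cannot be told apart. Hmga2 has 6772 exon bases in all. AI413582 overlaps 102 exon bases of Hmga1 and Uspl1 42 of Hmgb1, both also named afterwards, with ratios of 0.66 and 0.42. Lbr shares 440 exon bases with Dnah14, which had 0 reads in both libraries. Tmpo shares 244 with Gm26765, which had 69 and 41 reads. These genes were named afterwards too. The count table held no near-identical copy of the lamins, Lbr, Tmpo or Hmga2.

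The other HMG genes had no member counted higher or lower among the 15 of 18 that could be read. Of their intervals 5 lay above 0 and 8 below, with a median ratio of -0.15. For this and the lists below, the shares over all genes with at least 10 reads are 34.0% above 0 and 34.6% below. With at least 1000 reads they are 48.5% and 34.2%. Hmgn1, a nucleosome binding protein, had 11205 and 7628 reads (-0.33, -0.37 to -0.28). Its relatives Hmgn2 (1006 and 417 reads, -1.04, -1.21 to -0.87) and Hmgn5 (910 and 426 reads, -0.86, -1.03 to -0.70) had larger differences than Hmgn1. Tfam, the HMG-box protein that packs mitochondrial DNA, had 1386 and 1605 reads (0.44, 0.34 to 0.55), and Ssrp1, a subunit of the histone chaperone FACT, had 6195 and 5437 (0.04, and below 0 with scaling by total counts).

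Among 25 lamina-associated and LINC complex genes, 23 could be read, 0 were counted higher and 1 lower, and the median ratio was -0.08. Over all genes with at least 10 reads, 2.71% were counted higher and 5.60% lower. In this list 6 intervals lay above 0 and 10 below. With scaling by total counts 4 lay above 0 and 12 below, with a median of -0.19. The gene counted lower was Syne1, which encodes the giant nesprin that links nucleus and cytoskeleton. It had 4017 and 643 reads (-2.41, -2.54 to -2.29), or 5.32-fold lower. Syne2, the related nesprin, had 1868 and 1657 reads (0.06, -0.04 to 0.15, and below 0 with scaling by total counts). The SUN proteins, their partners in the membrane, gave 1558 and 1891 reads for Sun1 (0.51, 0.41 to 0.61) and 2420 and 1669 for Sun2 (-0.31, -0.40 to -0.22). Emd, which encodes emerin, had 1843 and 1276 reads (-0.30, -0.40 to -0.20), Nrm, which encodes nurim, 273 and 144 (-0.69, -0.99 to -0.40), Lemd3 1003 and 789 (-0.12, -0.25 to 0.02) and Banf1, which encodes the chromatin cross-linker BAF, 4463 and 3569 (-0.09).

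The 5 enzymes that process lamins had 0 genes counted in either direction and a median ratio of -0.01. Zmpste24, the protease that cuts prelamin A, had 3636 and 3234 reads (0.06, -0.01 to 0.13, and below 0 with scaling by total counts), and Icmt, which methylates the farnesylated end, 2207 and 2593 (0.46, 0.38 to 0.54). Of 29 nuclear pore genes 27 were matched by the symbols used, and 19 intervals (70.4%) lay above 0 and 2 (7.41%) below, with a median of 0.26 and a range of -0.25 to 0.63. With scaling by total counts 15 lay above 0 and 4 below, with a median of 0.15. Among all genes with at least 1000 reads, with TMM scaling, 48.5% of intervals lay above 0 and 34.2% below. Their median ratio was 0.08. Tpr, which forms the basket of the pore, had 6869 and 8901 reads (0.60, 0.56 to 0.65), Nup153 2918 and 3544 (0.51) and Nup210 597 and 654 (0.36).

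**Figure D5:**
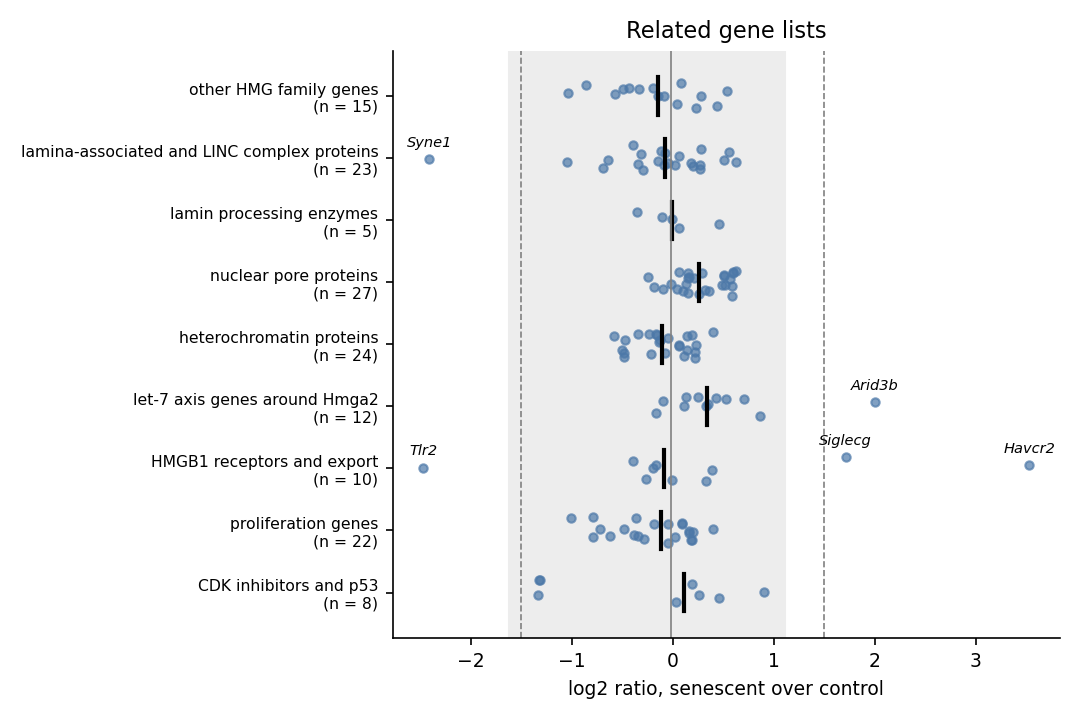
Log2 ratios of the genes of each pathway list with at least 10 reads, 1 point per gene, with the median of each list as a black bar. The grey band runs from the 5th to the 95th percentile of all genes (-1.62 to 1.11), the grey line is their median and the dashed lines are the thresholds. The nuclear pore genes have a median of 0.26 and a range of -0.25 to 0.63, the other HMG genes have a median of -0.15, and Syne1 lies apart in the lamina list at -2.41.

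Among 24 heterochromatin genes, 0 were counted in either direction, 9 intervals lay above 0 and 12 below, and the median was -0.10. With scaling by total counts 4 lay above 0 and 14 below, with a median of -0.21. The HP1 proteins, which bind methylated histone H3 and the lamin B receptor, gave 9949 and 7202 reads for Cbx5 (-0.24, -0.28 to -0.19), 5352 and 4062 for Cbx3 (-0.17) and 2387 and 2326 for Cbx1 (0.19). Suv39h1, a histone H3 methyltransferase, had 2123 and 1888 reads (0.06, -0.03 to 0.15, and below 0 with scaling by total counts), and the DNA methyltransferase Dnmt1 had a ratio of 0.14. Of 12 genes for receptors and export of HMGB1, 10 could be read, with 2 counted higher and 1 lower and a median of -0.09. Over all genes with at least 10 reads, 2.71% were counted higher and 5.60% lower. Havcr2, which encodes TIM-3, had 51 and 512 reads (3.53, 3.14 to 4.0), or 11.5-fold, and Siglecg, named after its values were seen, had 5 and 16. Tlr2 had 213 and 32 reads (-2.47, -3.09 to -1.96), or 5.55-fold lower. Ager, which encodes the receptor RAGE, had 23 and 17 reads and Tlr4 15 and 17, and the exportin Xpo1 had 5400 and 4589 (-0.01). Of the macrophage markers, Ptprc and Csf1r were also counted higher, at low counts, while Cd14 had an interval below 0 (-1.33, -1.41 to -1.26). Cd68 had 34 and 40 reads and an interval that held 0 (-0.23 to 1.17). Adgre1 and Lyz2 had almost no reads. The part of macrophage markers in the Havcr2 value was not tested.

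Expression of Hmgb2 and Lmnb1 is tied to cell division in many cells, so proliferation genes are given beside them. Of 22 such genes, 0 were counted in either direction, 7 intervals lay above 0 and 11 below, and the median was -0.12, with a range of -1.01 to 0.40. With scaling by total counts 3 lay above 0 and 12 below, with a median of -0.22. Mki67, which encodes the proliferation marker Ki-67, had 3322 and 1635 reads (-0.79, -0.88 to -0.71), close to the ratio of Hmgb2. Pcna, the replication clamp, had 4853 and 3224 (-0.36, -0.43 to -0.30) and the helicase subunit Mcm5 2869 and 1927 (-0.34). Top2a, a topoisomerase of dividing cells, had 3576 and 3452 (0.18) and cyclin B1, Ccnb1, 861 and 782 (0.09, -0.05 to 0.23, and below 0 with scaling by total counts). Among 8 CDK inhibitor and p53 genes the median was 0.11 with 0 counted in either direction. Cdkn1a, which encodes p21, had 6182 and 9869 reads (0.90, 0.86 to 0.95), Cdkn2a, which encodes p16 and p19Arf, 437 and 149 (-1.32, -1.60 to -1.05), Cdkn2b 472 and 555 (0.46) and Trp53 5364 and 5494 (0.26). The part of cell division in the ratios of the HMG and lamina genes was not tested.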

How the data were processed

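RNA of control and senescent AML12 cells was poly(A) selected, and the authors deposited a table of un-normalized read counts per Ensembl gene with 1 column per library. The submitters' processing notes name mm10, CASAVA, STAR, DESeq2 and edgeR, with no versions or roles. The counting tool, the annotation and the use of strand are not given in the sources used here. Columns were tied to samples by the initials of the sample titles. Of 35275 identifiers, 34490 (97.8%) matched a symbol, and GENCODE M21 gave positions and merged exon lengths. Counts were scaled by TMM in edgeR 4.0.16, with factors of 1.04 (control) and 0.964 (senescent). With 1 library per condition no test across genes was possible, so ratios have counting intervals only. Genes with at least 10 reads (14383) were read. Alternatives were other scalings, filters, prior counts and thresholds, an assumed spread, removal of GC and length trends, and addition of near-identical copies (blastn 2.17.0, at least 95% identity). Members and lists were chosen with earlier results of these data known. Named genes are all members, the preset genes of each list, up to 4 others per direction counted higher or lower with at least 100 reads, and cell type markers. Genes named outside this rule are marked as such. Older and newer symbols of 1 gene were counted once. Ratios and intervals were tested on simulated counts with large planted changes and counting error only. The simulation held no spread between cultures, so it cannot speak to that spread. Promoters and microRNAs came from RefSeq tables, and protein sequences were not used here.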

Additional observations from a re-analysis of the deposited data

How the results depend on the processing

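Over 14 alternatives, no ratio of the 10 genes changed sign. Of 140 ratios, 124 moved by less than their counting interval and 16 by more. The read filters, thresholds and assumed spreads cannot move a ratio, so their ratios were among the 124 in advance. Total-count scaling moved every member but Hmgb3 out of its interval. Hmga1 ranged from 1.5 to 1.68 and Hmga2 from 1.62 to 1.73. Both were counted higher in every alternative but a threshold of 2, where 0 members were. Total-count scaling put Hmga1 at 1.505, just past the threshold, and shifted the median of all genes by -0.10. Hmgb3 ranged from -1.13 to -0.95, and at a threshold of 1 it was the 1 member counted lower. Lmna ranged from 0.63 to 0.73, Lmnb1 from -0.41 to -0.23 and Tmpo from -0.43 to -0.28. Counts over all genes (390 higher and 805 lower) became 141 and 395 with at least 100 reads, 732 and 1435 at a threshold of 1, and 219 and 460 at a threshold of 2. With at least 1000 reads, an alternative chosen after seeing the data, they became 68 and 133. The higher count was 259 with a prior count of 5 and 243 with an assumed coefficient of variation of 0.4. No paired analysis was possible because each condition was 1 library, and no library could be left out for the same reason. Counting error is small for all 10 genes at this depth, and the spread between cultures, which the intervals do not hold, limits every ratio.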
